A study of Mus musculus with 4 samples.

Results

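The genes described here are 7 neighbouring Trim genes of the mouse, Trim5, Trim12a, Trim12c, Trim30a, Trim30b, Trim30d and Trim34a, taken by symbol from the 55471 genes of the count tables. In lungs of embryos carrying a mesenchymal deletion of Dnmt1, Trim5 rose in mesenchymal-like cells from 1.92 and 0.891 CPM to 86.5 and 38.4 CPM, while no other member passed the test in those cells. CPM stands for counts per 1000000 unique molecular identifiers (UMIs, tags that each mark 1 captured RNA molecule) of a cell class in 1 library. Trim30b was found almost entirely in immune-like cells, where it was lower in both mutant libraries. Trim5 in mesenchyme and Trim30b in immune cells were chosen because these differences had been seen in the same data, so both are given as descriptions without a p-value.

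The data were single-cell RNA libraries, read from the 3′ ends of transcripts on the 10x Genomics platform, from whole lungs of E18.5 embryos, just before birth. There were 2 libraries labelled wild type and 2 labelled Dnmt1 CKO, called mutant here, which carry Tbx4-rtTA and Tet-O-Cre together with the Dnmt1-D/D alleles. In that design the Tbx4 promoter drives a doxycycline-dependent activator, which turns on Cre in lung mesenchyme. Immune, epithelial and endothelial cells of the mutant lungs are therefore not the cells the driver was built to recombine. The labels give no doxycycline schedule and do not say that libraries came from separate animals or litters, so p-values here measure the spread between these libraries only. The wild type label names neither the activator nor the Cre allele, so their presence cannot be told apart from the loss of Dnmt1.

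TRIM proteins carry a RING finger, a B-box and a coiled coil, and many end in a B30.2 (SPRY) domain. Primate TRIM5α binds the capsid of incoming retroviruses with that last domain and blocks infection. The mouse has no one-to-one counterpart of that gene, and its Trim5, Trim12a and Trim12c are the closest relatives, while Trim30a encodes an interferon-inducible protein known to restrain Toll-like receptor signalling to NF-κB through TAB2 and TAB3. Trim30b and Trim30d are copies next to Trim30a, and Trim34a is the relative of human TRIM34. DNMT1 copies DNA methylation to the new strand at replication.

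All 7 genes lie within 263.4 kb of chromosome 7 in GRCm38, as annotated by GENCODE vM21, and all are protein-coding. Trim34a (chr7:104244457-104262234) is on the plus strand and the other 6 are on the minus strand. They follow in the order Trim5 (chr7:104263386-104288094), Trim12a (chr7:104299894-104315466), Trim12c (chr7:104338754-104353362), Trim30b (chr7:104355382-104369884), Trim30a (chr7:104409025-104465193) and Trim30d (chr7:104470014-104507849). Antisense gene models overlap Trim34a (Gm47248), Trim12a (Gm15133) and Trim30a (Gm25405), and small or unnamed models on the same strand overlap Trim5, Trim12c and Trim30d.

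RefSeq promoter windows of 300 bases, from 250 bases before to 50 bases after the annotated start, were found for all 7 genes. They are shown for 5 genes because the gene that rose, its closest copies and the pair of Trim30 genes described below can be read against each other. Sequences run 5′ to 3′ on the gene's own strand in GRCm38.p6, and capitals mark CG dinucleotides, the sites DNMT1 maintains, and matches to an interferon-response-like motif, a pair of GAAA runs 2 bases apart read on either strand.
Trim5, chr7:104288057-104288356, minus strand: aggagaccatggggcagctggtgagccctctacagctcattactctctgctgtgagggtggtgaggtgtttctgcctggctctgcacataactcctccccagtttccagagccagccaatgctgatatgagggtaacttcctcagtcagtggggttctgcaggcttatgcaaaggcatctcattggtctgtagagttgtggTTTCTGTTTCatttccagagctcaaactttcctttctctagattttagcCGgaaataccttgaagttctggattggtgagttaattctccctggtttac
Trim12a, chr7:104315446-104315745, minus strand: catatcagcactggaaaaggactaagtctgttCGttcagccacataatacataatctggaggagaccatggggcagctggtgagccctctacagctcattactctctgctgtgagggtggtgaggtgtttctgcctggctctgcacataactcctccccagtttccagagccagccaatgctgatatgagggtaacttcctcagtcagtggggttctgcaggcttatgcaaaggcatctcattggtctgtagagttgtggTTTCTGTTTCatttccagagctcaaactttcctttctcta
Trim12c, chr7:104353300-104353599, minus strand: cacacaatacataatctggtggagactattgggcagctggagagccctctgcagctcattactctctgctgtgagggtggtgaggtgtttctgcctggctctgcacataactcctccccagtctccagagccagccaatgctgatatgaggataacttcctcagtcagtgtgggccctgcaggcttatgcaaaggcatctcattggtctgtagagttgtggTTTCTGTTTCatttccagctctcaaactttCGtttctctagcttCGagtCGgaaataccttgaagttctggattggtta
Trim30a, chr7:104465144-104465443, minus strand: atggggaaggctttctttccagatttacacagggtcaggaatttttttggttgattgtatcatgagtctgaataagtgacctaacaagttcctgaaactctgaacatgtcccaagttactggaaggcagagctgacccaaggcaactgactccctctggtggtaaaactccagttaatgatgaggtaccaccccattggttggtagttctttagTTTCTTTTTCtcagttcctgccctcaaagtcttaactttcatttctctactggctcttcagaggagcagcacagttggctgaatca
Trim30b, chr7:104358597-104358896, minus strand: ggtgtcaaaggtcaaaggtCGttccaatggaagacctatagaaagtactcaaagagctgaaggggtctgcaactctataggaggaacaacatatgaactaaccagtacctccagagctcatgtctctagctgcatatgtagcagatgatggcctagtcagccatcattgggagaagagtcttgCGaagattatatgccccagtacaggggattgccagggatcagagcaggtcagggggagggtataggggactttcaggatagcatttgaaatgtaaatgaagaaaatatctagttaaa

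The windows of Trim5 and Trim12a aligned over 241 bases at 100% identity, and those of Trim5 and Trim12c over 277 bases at 94.6% identity. The window of Trim5 aligned with that of Trim30a over only 61 bases, at 78.7% identity. A match to the motif lay in the windows of Trim5, Trim12a, Trim12c, Trim30a, Trim30d and Trim34a, which makes 6 of the 7 genes, although the bases at its open positions differed between these groups of copies. Of all 32851 RefSeq promoter windows of this length, 3.44% held a match. A match describes the letters and is no evidence of binding. No match lay in the window printed for Trim30b, whose RefSeq start lies 11238 bases inside the GENCODE gene model. The windows were poor in CG dinucleotides, with 1 in Trim5, 1 in Trim12a, 3 in Trim12c, 0 in the printed Trim30a window, 2 in Trim30b, 1 in Trim30d and 3 in Trim34a, against a median of 7 (quartiles 3 and 20) over all windows. No methylation was measured in this study.

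The sequences bear on the counts too, since reads that match 2 genes equally are lost or misplaced. The longest coding transcripts of Trim5 and Trim12c aligned over 3638 bases at 96.4% identity, and those of Trim30a and Trim30d over 3018 bases at 88.4%. In the last 500 bases of each transcript, where 3′ reads fall, 10 of 441 windows of 60 bases in Trim5 also occurred exactly in Trim12c. The same 10 windows counted in the other direction, and the other 5 genes had 0 such windows in any other annotated gene. Values of Trim5 and Trim12c could therefore exchange a small part of their reads.

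Libraries held 6284 to 7820 barcodes and 48213065 to 56760219 UMIs in all. After filtering, 4323 to 5675 cells per library were grouped by marker genes. The classes used here were mesenchymal-like, immune-like, epithelial-like, endothelial-like and mesothelial-like, the last a thin class of 27 to 61 cells per library. An erythroid cluster of 21 to 67 cells and a cardiomyocyte cluster of 8 to 44 cells per library were not used. Pairs of libraries shared 8 to 16 barcodes. Dnmt1 itself, the check of the labels, fell in mesenchymal-like cells from 27.2 and 25.5 CPM in the wild type libraries to 9.74 and 12.8 in the mutant libraries, a log2 change of -1.24 (SE 0.215, edgeR adjusted p = 0.00759). These are counts of 3′ ends and do not by themselves show which cells recombined.

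**Figure D1:**
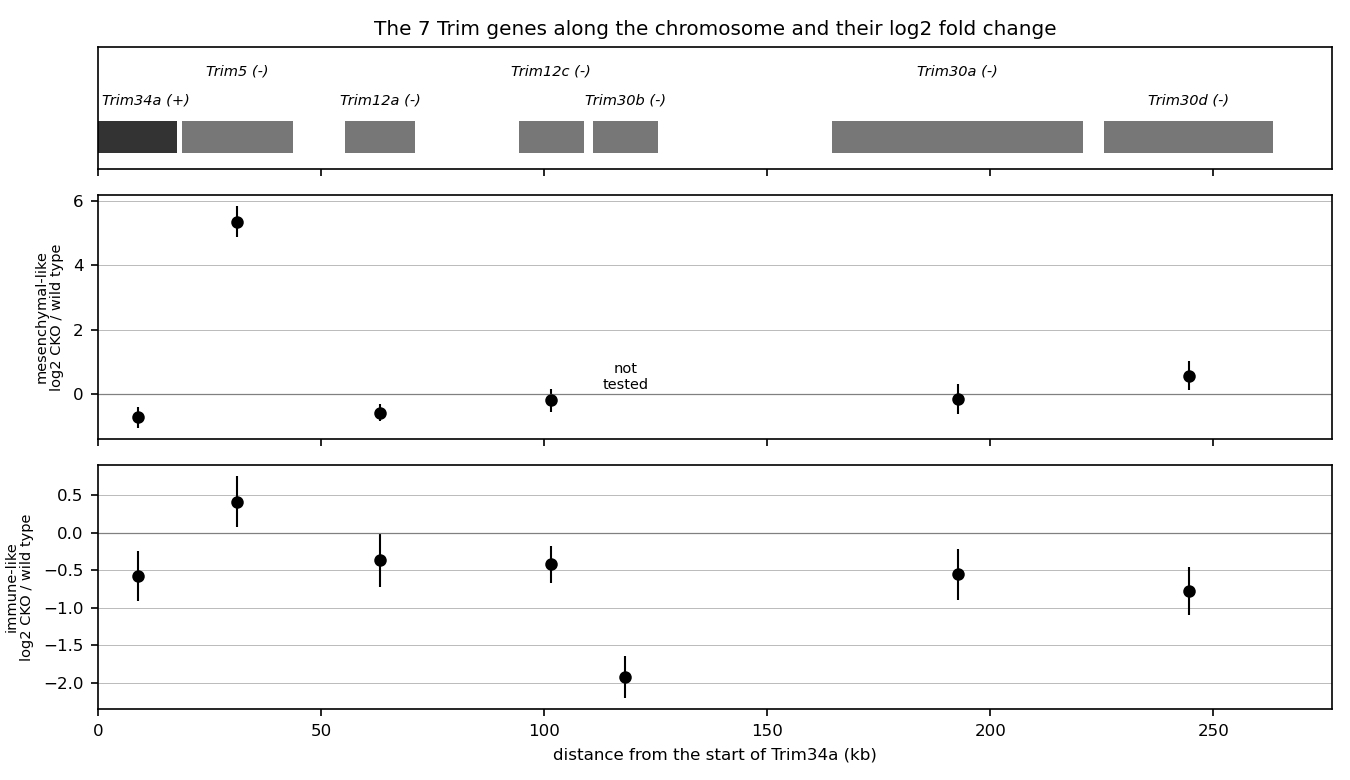
Position of the 7 genes (top, distance from the start of Trim34a in kb, strand in brackets) and the log2 fold change of mutant over wild type libraries in mesenchymal-like cells (middle) and immune-like cells (bottom). Bars are standard errors derived from the edgeR F statistic, with 2 libraries per group. Trim5 stands at 5.36 in mesenchymal-like cells, between neighbours at -0.72 and -0.58, and Trim30b stands at -1.92 in immune-like cells.

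Trim5 in mesenchymal-like cells had 33 UMIs in wild type library 1, 18 in wild type library 2, 1714 in mutant library 1 and 651 in mutant library 2. In CPM, that was 1.92, 0.891, 86.5 and 38.4. Both mutant libraries lay above both wild type libraries, and mutant library 1 was the higher of the mutant pair. The log2 change was 5.36 (SE 0.479, n = 2 per group), and the pooled ratio was 47.1, with a counting interval of 35.7 to 63.5. Among the 6 members tested in this class (edgeR quasi-likelihood test, adjusted p under 0.05 over all genes), Trim5 alone was called, beside 12.9% of all 16152 genes tested. That contrast chose Trim5, so nothing is read from the count.

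Trim5 was also counted as the share of cells that held it. In cells thinned to 3000 UMIs each, 0.498% and 0.166% of wild type mesenchymal-like cells had a Trim5 UMI, against 17.6% and 8.58% of mutant ones. Thinning left out 142 to 296 shallower cells per library, and the unthinned shares were 1.07%, 0.665%, 28.1% and 13.5%. Immune-like cells, which the driver does not target, gave 1.59% to 2.15% after thinning, all below both mutant mesenchymal shares. Median depths before thinning were 5814 to 7648 UMIs in mesenchymal-like and 5748 to 9000 in immune-like cells.

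Trim5 was also unevenly spread among the mesenchymal-like clusters. The cluster led by Mgp, Dazl and Mfap4 was made almost wholly of mutant cells, 1193 and 1188 against 3 and 1, and stood at 117 and 58.3 CPM. Dazl is a germ-cell RNA-binding protein gene. A cluster led by Igf1, Mgp and Myh11 followed at 104 and 46.9, and the collagen-rich cluster led by Dcn stood at 53.5 and 47.9, while wild type cells of these clusters had 0 to 2.37. The cluster led by Top2a and Cenpf, genes of dividing cells, had 64.2 and 40.3.

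Some clusters that also held many wild type cells set the mutant libraries apart from each other. In the cluster led by Higd1b, Gucy1a1 and Cox4i2, Trim5 stood at 65.6 CPM in mutant library 1 and 5.76 in mutant library 2, with 0 in both wild type libraries. In the larger of the clusters led by Mfap4, Fn1 and Limch1, the values were 20.2 and 1.13 against 2.59 and 1.16 in wild type libraries, so mutant library 2 was close to wild type library 2. In the cluster led by Tgfbi and Hhip the 25 and 89 mutant cells had 0 Trim5 UMIs. Dnmt1 in the mutant cells of the Mgp, Dazl and Mfap4 cluster stood at 5.60 and 3.85 CPM. In the Higd1b-led cluster it stood at 33.6 and 27.7 in wild type and 19.7 and 28.8 in mutant libraries. In the larger Mfap4-led cluster the values were 22.1 and 21.95 against 28.6 and 20.3. The cluster led by Tagln and Acta2 had mutant Trim5 at 42.3 and 11.8 on 9 and 3 UMIs. Dnmt1 there stood at 29.7 and 29.05 against 28.2 and 47.2. Other clusters had less Dnmt1 in both mutant libraries, with 105 and 111 against 25.45 and 37.1 in the Top2a-led one. The Dcn-led cluster had 28.4 and 30.3 against 6.2 and 12.6, and the Igf1-led one 42.1 and 15.3 against 2.47 and 4.44. The cluster led by Col1a1 had 18.9 and 23.3 against 7.91 and 12.1, and the Tgfbi-led one 27.25 and 27.1 against 19.35 and 16.05. The part of Dnmt1 in these Trim5 levels was not tested. Clusters were formed from these same cells, so levels between them are a description.

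Cells that had a Dazl UMI held Trim5 more often than those without one. In mutant library 1, 20.8% (exact binomial interval 18.6 to 23.1) of thinned cells with a Dazl UMI had a Trim5 UMI, against 13.9% (11.9 to 16.1) of those without. In mutant library 2 the shares were 12.9% (11.02 to 14.9) and 4.54% (3.46 to 5.82). Intervals cover counting error only. All cells compared had been thinned to the same depth. Cells with a Dazl UMI were picked by that UMI, so cluster differs between the groups compared, and its part in these shares was not tested. Trim5 thus occurred also in mutant cells with no Dazl UMI, at shares above the 0.166% and 0.498% of such wild type cells. A cell with no Dazl UMI at this depth can still express Dazl, so these cells cannot be called Dazl-negative.

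**Figure D2:**
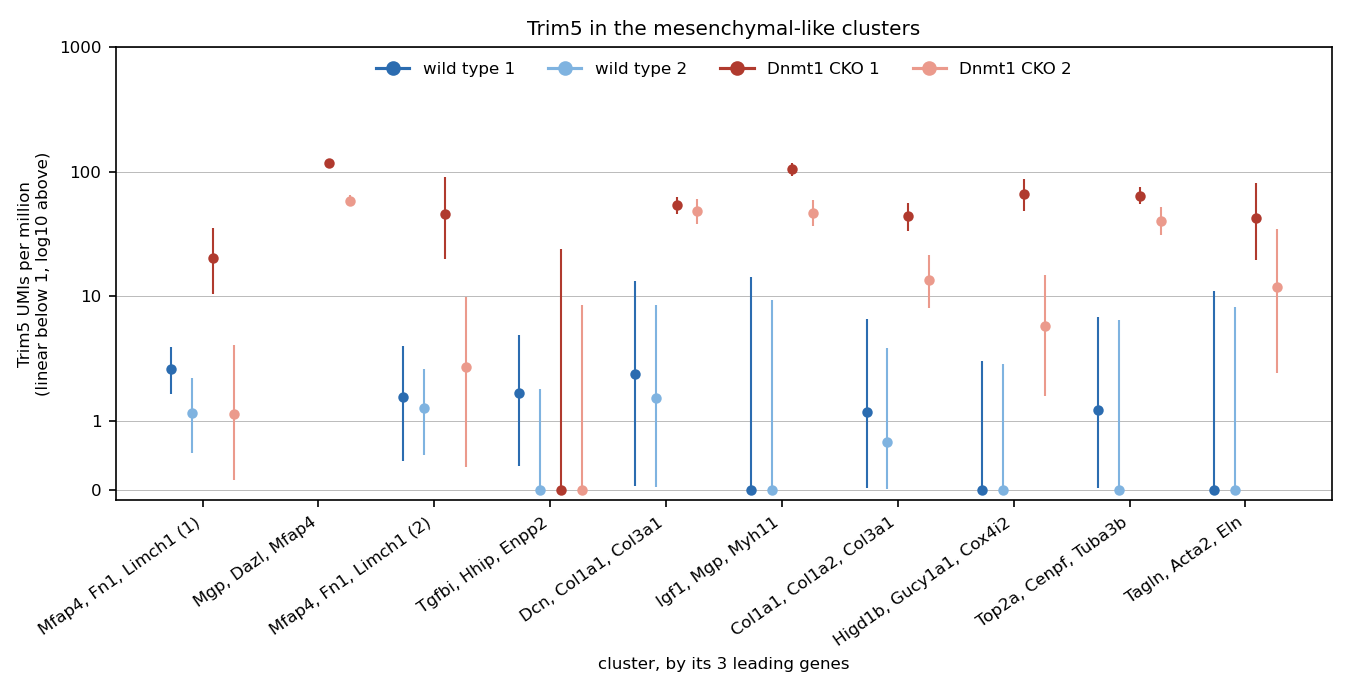
Trim5 CPM (y axis, linear below 1 and log10 above) in each mesenchymal-like cluster (x axis, named by its 3 leading genes), one point per library with at least 5 cells there; bars are 95% Poisson counting intervals. Mutant points lie above the wild type points in 7 of the 9 clusters that hold at least 5 cells of every library, and mutant library 1 lies above mutant library 2 except where both are at 0.

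In immune-like, epithelial-like and endothelial-like cells Trim5 stayed between 2.06 and 6.93 CPM in every library. In wild type libraries its level was 4.65 ± 0.543 (SD, n = 2) in immune-like, 2.55 ± 0.422 in epithelial-like, 2.36 ± 0.413 in endothelial-like, 1.41 ± 0.730 in mesenchymal-like and 1.33 ± 1.89 in mesothelial-like cells. Immune-like cells were highest, and epithelial-like and endothelial-like levels did not differ beyond their spread, nor did the lowest 2. In mutant libraries the order changed to mesenchymal-like at 62.4 ± 34.0, mesothelial-like at 18.9 ± 14.1, immune-like at 6.02 ± 1.28, endothelial-like at 4.0 ± 0.201 and epithelial-like at 3.30 ± 0.698. Trim5 differed by 0.32 on the log2 scale in epithelial-like cells (SE 0.361) and by 0.70 in endothelial-like cells (SE 0.442), with an edgeR adjusted p of 1 in both. Groups overlapped in the first and not in the second.

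Mesothelial-like cells, which cover the lung, also had more Trim5 in mutant libraries on very few UMIs. The counts were 0 and 2 in wild type libraries and 24 and 10 in mutant libraries, or 0, 2.67, 28.8 and 8.90 CPM. Groups did not overlap, and the pooled ratio was 11.3 with a counting interval of 2.89 to 97.0. Trim5 did not pass the low-count filter there. With no filter, edgeR gave 2.37 on the log2 scale (adjusted p = 0.00279). Adjusted p was 0.0467 without mutant library 2, and 0.517 and 0.439 without wild type library 1 and 2. Dnmt1 in these cells stood at 52.8, 49.3, 9.60 and 18.7 CPM (edgeR adjusted p = 0.0802). The 12 mesenchymal markers, all detected in this class, summed to 14292 and 16649 CPM in wild type and 8708 and 7382 in mutant libraries, and their part in the result was not tested.

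Trim12a and Trim12c, the closest copies of Trim5, did not share its rise. Trim12a in mesenchymal-like cells stood at 11.5 and 8.31 CPM in wild type libraries and 7.57 and 5.83 in mutant libraries. The groups did not overlap and the log2 fold change was -0.58 (SE 0.276). Trim12c stood at 9.67, 20.3, 9.59 and 16.6, with overlapping groups and a log2 fold change of -0.20 (SE 0.355), which was 0.37 without wild type library 2 and 0.15 without mutant library 1. The identical 241 bases shared by the Trim5 and Trim12a windows lie at different distances from the annotated starts of these genes. Their part in either level was not tested.

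No difference of this pair passed the test in the classes that did not choose the members. Trim12a in epithelial-like cells had 15.3, 9.64, 15.4 and 7.07 CPM (log2 -0.21, SE 0.421, edgeR adjusted p = 1). In endothelial-like cells it had 21.6, 17.7, 15.1 and 13.6 (log2 -0.42, SE 0.275, adjusted p = 1), with mutant libraries lower. In mesothelial-like cells it had 7.29, 13.3, 22.8 and 19.6 on 4 to 22 UMIs (log2 0.81, SE 0.406, adjusted p = 0.526), with mutant libraries higher. Trim12c had log2 fold changes of -0.020 (SE 0.263) in epithelial-like, -0.41 (SE 0.347) in endothelial-like and 0.28 (SE 0.451) in mesothelial-like cells, each with overlapping groups and an adjusted p of at least 0.866.

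The share of Trim12c differed between libraries of the same genotype. Counted over all 5 classes, Trim12c made up 51.9% (exact binomial interval 49.3 to 54.6) of the Trim12a and Trim12c UMIs in wild type library 1 and 54.9% (51.9 to 57.9) in mutant library 1. In wild type library 2 it made up 72.6% (70.7 to 74.5), and in mutant library 2, 74.1% (72.0 to 76.2). The split was seen within the large classes too: 45.7% and 55.9% against 70.9% and 74.0% in mesenchymal-like cells, and 54.1% and 53.5% against 72.8% and 78.5% in epithelial-like cells. The labels give the number 1 to the first of these pairs and the number 2 to the second without saying what it stands for, and the pattern was noticed after the values were seen.

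**Figure D3:**
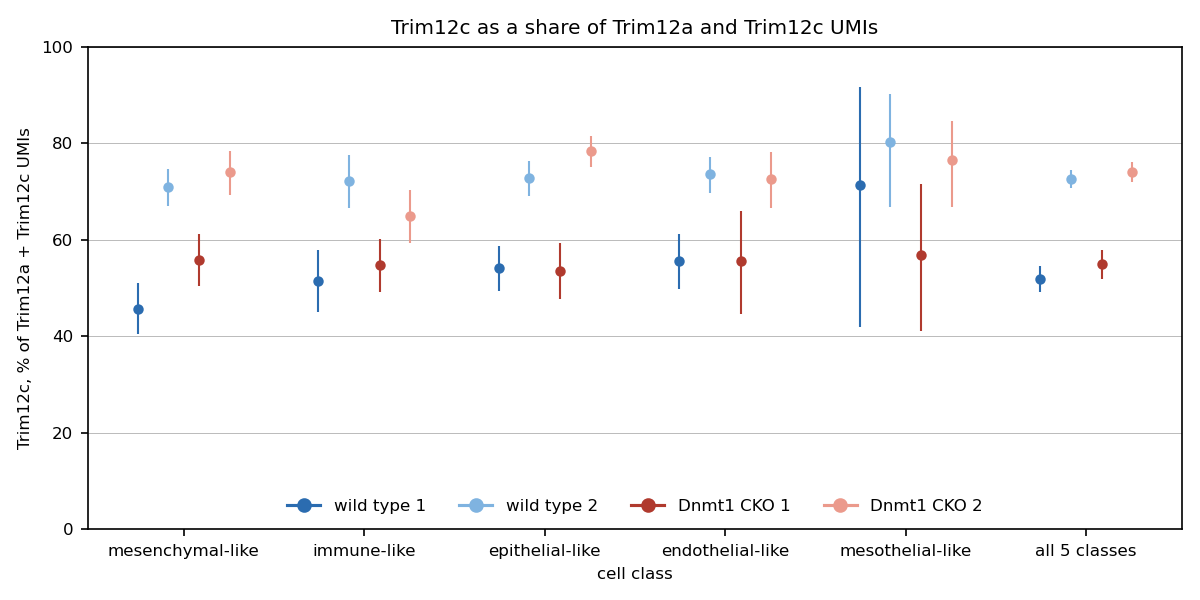
Trim12c UMIs as a percentage of Trim12a and Trim12c UMIs (y axis) in each cell class and over all 5 (x axis), one point per library with exact binomial 95% intervals. Over all 5 classes the libraries numbered 1 sit at 51.9% and 54.9% and those numbered 2 at 72.6% and 74.1%, whatever their genotype.

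Trim30b was the most restricted of the 7 genes. It had 0 UMIs in mesenchymal-like cells of all 4 libraries, which allows up to 0.0803 CPM over the wild type and 0.0816 over the mutant libraries at 3 counts per group. It also had 0 in mesothelial-like cells, 6 UMIs in all epithelial-like cells and 1 in all endothelial-like cells. In immune-like cells it had 63 and 81 UMIs in the wild type and 34 and 25 in the mutant libraries, or 15.8, 15.7, 4.06 and 3.46 CPM. The 2 groups did not overlap. The log2 fold change was -1.92 (SE 0.280) and the pooled ratio 0.240, with a counting interval of 0.174 to 0.327. In thinned cells, 2.74% and 3.59% of wild type and 0.745% and 1.12% of mutant immune-like cells had a Trim30b UMI.

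By edgeR, 0 of the 7 members tested in immune-like cells were called, beside 0.016% of 12511 genes, while DESeq2 called Trim30b, beside 0.24% of the same genes. Trim30b was lower in both mutant libraries without passing the main threshold. That contrast chose Trim30b, so nothing is read from these calls.

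Much of the Trim30b in immune-like cells lay in few cells. The cluster led by S100a9 and S100a8, genes of neutrophils, held 34 of 63, 37 of 81, 23 of 34 and 5 of 25 of the Trim30b UMIs, at 269, 348, 345 and 119 CPM. Within that cluster mutant library 1 lay between the wild type libraries and mutant library 2 lay below them, on 5 UMIs from 20 cells. The cluster made up 8.46% and 6.63% of wild type and 3.20% and 2.18% of mutant immune-like cells, and the summed level of the neutrophil marker list in immune-like cells was 6014, 2449, 2180 and 932.5 CPM. Both the share of these cells and the level of Trim30b were lower in the mutant libraries. Wild type library 2 and mutant library 1 had marker levels of 2449 and 2180 CPM, with Trim30b at 15.7 and 4.06. Their shares of S100a9-led cells were 6.63% and 3.20%, so similar marker sums came with unlike shares of these cells. The part of these cells in the level of Trim30b was not tested.

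Without the S100a9-led cluster, a setting chosen after seeing the data, Trim30b in immune-like cells stood at 7.54, 8.71, 1.32 and 2.78 CPM. Both mutant libraries were still below both wild type ones, with a log2 fold change of -1.77 (SE 0.442). Other weights for the clusters, also chosen after seeing the data, changed the picture. With each cluster weighted by its share of the cells of all 4 libraries, the values were 20.8, 24.9, 17.6 and 8.40 CPM, without overlap. With equal weight for each cluster they were 39.8, 50.1, 44.8 and 17.9, and the groups overlapped. A cluster led by Lyz2, Ctss and Cd14, genes of monocytes and other myeloid cells, had 43.7 and 29.1 in wild type against 5.55 and 8.77 in mutant libraries, on 24, 26, 4 and 11 UMIs. The whole neutrophil marker list summed there to 1759, 732.3, 2469 and 536.8 CPM, with S100a8, S100a9, Mmp8 and Cxcr2 present in all 4 libraries and Ngp, Camp, Ltf and Ly6g at 0. Monocyte markers in that cluster summed to 7784 and 6912 in wild type against 4861 and 4498 in mutant libraries, and macrophage markers to 8068, 7529, 5961 and 14305. The part of these differences in the level of Trim30b was not tested. The cluster led by C1qa, C1qb and Pf4 had 0.968, 9.49, 0.737 and 0.770, so wild type library 2 stood apart there.

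**Figure D4:**
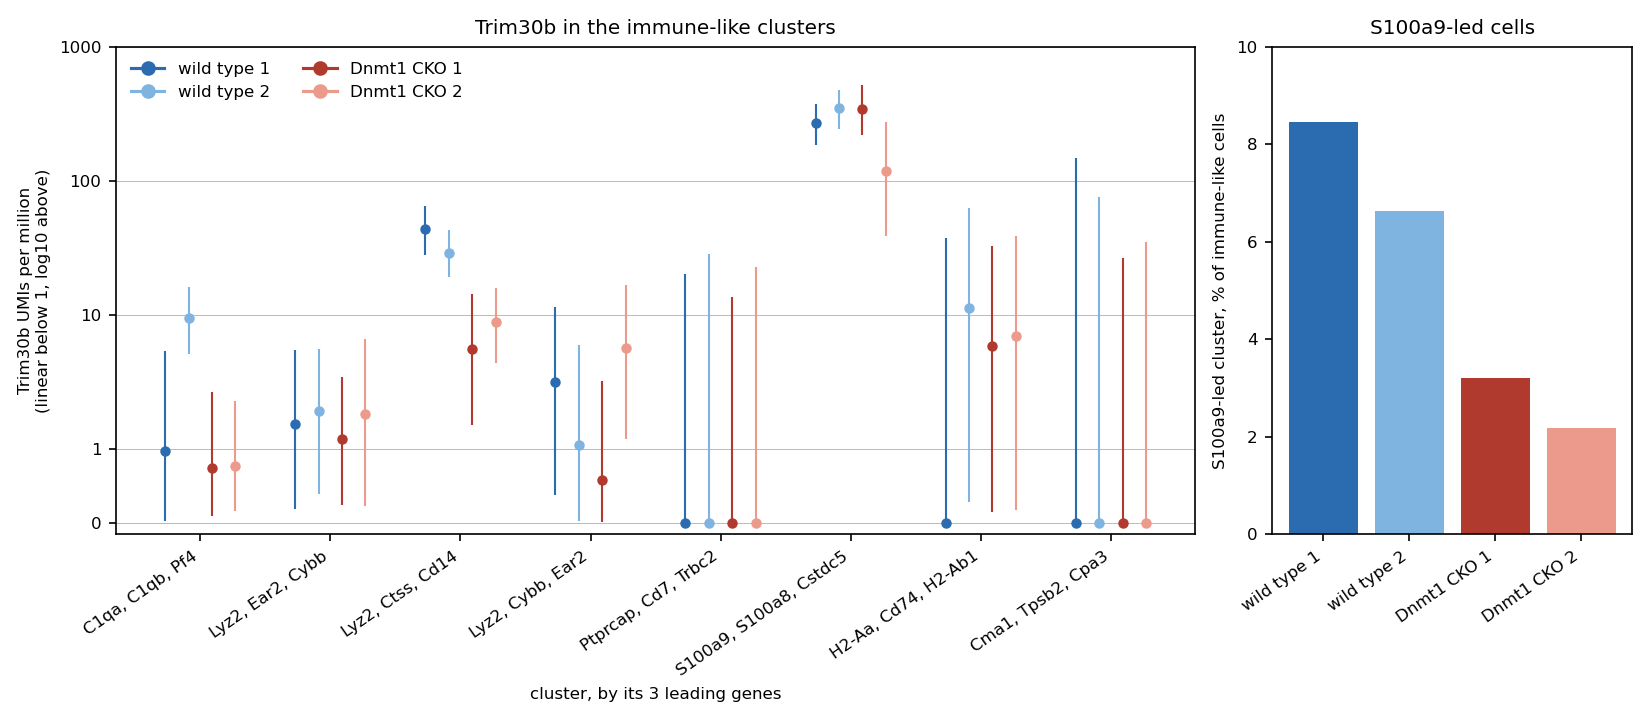
Left, Trim30b CPM (y axis, linear below 1 and log10 above) in each immune-like cluster (x axis, 3 leading genes), one point per library with 95% Poisson intervals; right, the S100a9-led cluster as a percentage of immune-like cells. Trim30b is highest in the S100a9-led cluster, whose share is 8.46% and 6.63% in wild type and 3.20% and 2.18% in mutant libraries.

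Trim30a and Trim30d, the copies beside it, were also higher in immune-like cells than elsewhere. Trim30a in immune-like cells stood at 107, 134, 53.6 and 100 CPM, so both mutant libraries were below both wild type ones, but mutant library 2 only slightly. The log2 fold change was -0.55 (SE 0.340), with -1.17 without mutant library 2 and -0.11 without mutant library 1. Trim30d stood at 42.5, 24.8, 17.1 and 20.1 (log2 -0.78, SE 0.316). The 5 of 7 members that were lower without overlap in mutant immune-like cells were Trim12c, Trim30a, Trim30b, Trim30d and Trim34a, beside 18.8% of all genes tested, and Trim5 was the 1 that was higher, beside 12.5%. As that contrast chose Trim30b, nothing is read from these counts.

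The remaining members in immune-like cells were as follows. Trim12a stood at 29.7, 14.3, 18.2 and 14.4 CPM, with overlapping groups (log2 -0.37, SE 0.354), and at 0.26 on the log2 scale without wild type library 1. Trim12c stood at 31.5 and 37.4 in wild type and 21.98 and 26.7 in mutant libraries (log2 -0.42, SE 0.242). Trim34a stood at 8.81 and 6.59 against 5.38 and 4.29 (log2 -0.58, SE 0.334). Trim5 went the other way, at 5.03 and 4.26 against 6.93 and 5.12 (log2 0.41, SE 0.340), and at 0.96 with doublets kept. The last 3 genes had mutant and wild type libraries that did not overlap.

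The 3 Trim30 genes differed in which cells held them. Trim30a was next highest in endothelial-like cells at 33.0 ± 6.44 CPM (SD, n = 2) in wild type libraries, against 0.564 ± 0.0272 in mesenchymal-like and 0.841 ± 0.0177 in epithelial-like cells, and it had 0 UMIs in mesothelial-like cells. The immune-like level, 120 ± 19.1, was above the endothelial-like one beyond their spread. Trim30a in endothelial-like cells had 28.4, 37.5, 12.8 and 34.3 (log2 -0.41, SE 0.367, edgeR adjusted p = 1). Trim30d in wild type immune-like cells was at 33.7 ± 12.5 and in the other classes, apart from mesothelial-like cells on 1 to 6 UMIs, at 0.543 to 1.67 on average. In mesenchymal-like cells, where Trim30d had 9 to 20 UMIs per library, both mutant libraries (1.01 and 0.707) were above both wild type libraries (0.641 and 0.445), with a log2 fold change of 0.56 (SE 0.446).

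Trim34a, the only one of the 7 on the plus strand, was highest in endothelial-like cells. There its level was 16.4 and 11.9 CPM in the wild type libraries against 9.04 and 6.90 in the mutant ones (log2 -0.79, SE 0.328, edgeR adjusted p = 1). In mesenchymal-like cells it stood at 2.27, 2.47, 1.41 and 1.41 (log2 -0.72, SE 0.333), again lower in both mutant libraries. In epithelial-like cells the groups overlapped, at 4.98, 4.14, 6.48 and 4.31 (log2 0.19, SE 0.331, adjusted p = 1).

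In epithelial-like cells Trim30a had 4 to 30 UMIs and a log2 change of 0.25 (SE 0.553), and Trim30d had 9 to 20 UMIs and 0.28 (SE 0.461), each with an edgeR adjusted p of 1.

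Of the 6 members tested in mesenchymal-like cells, 4 had groups that did not overlap: Trim5 and Trim30d higher, Trim12a and Trim34a lower. Over all genes there the share was 57.5%, with 31.4% higher and 26.1% lower. In the classes that did not choose the members, edgeR called 0 of 6 in epithelial-like cells, 0 of 5 in endothelial-like cells and 0 of 2 in mesothelial-like cells, beside 0%, 0.0631% and 0.564% of all genes. At an unadjusted p under 0.05 the counts were 0, 1 and 0, beside 3.05%, 3.82% and 10.4%. DESeq2 called 0 in each, beside 0.105%, 0.118% and 0.61%. Median log2 fold changes of the tested members were -0.18 in mesenchymal-like, -0.55 in immune-like, 0.22 in epithelial-like, -0.41 in endothelial-like and 0.54 in mesothelial-like cells, against medians of all genes between -0.00017 and 0.0068.

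**Figure D5:**
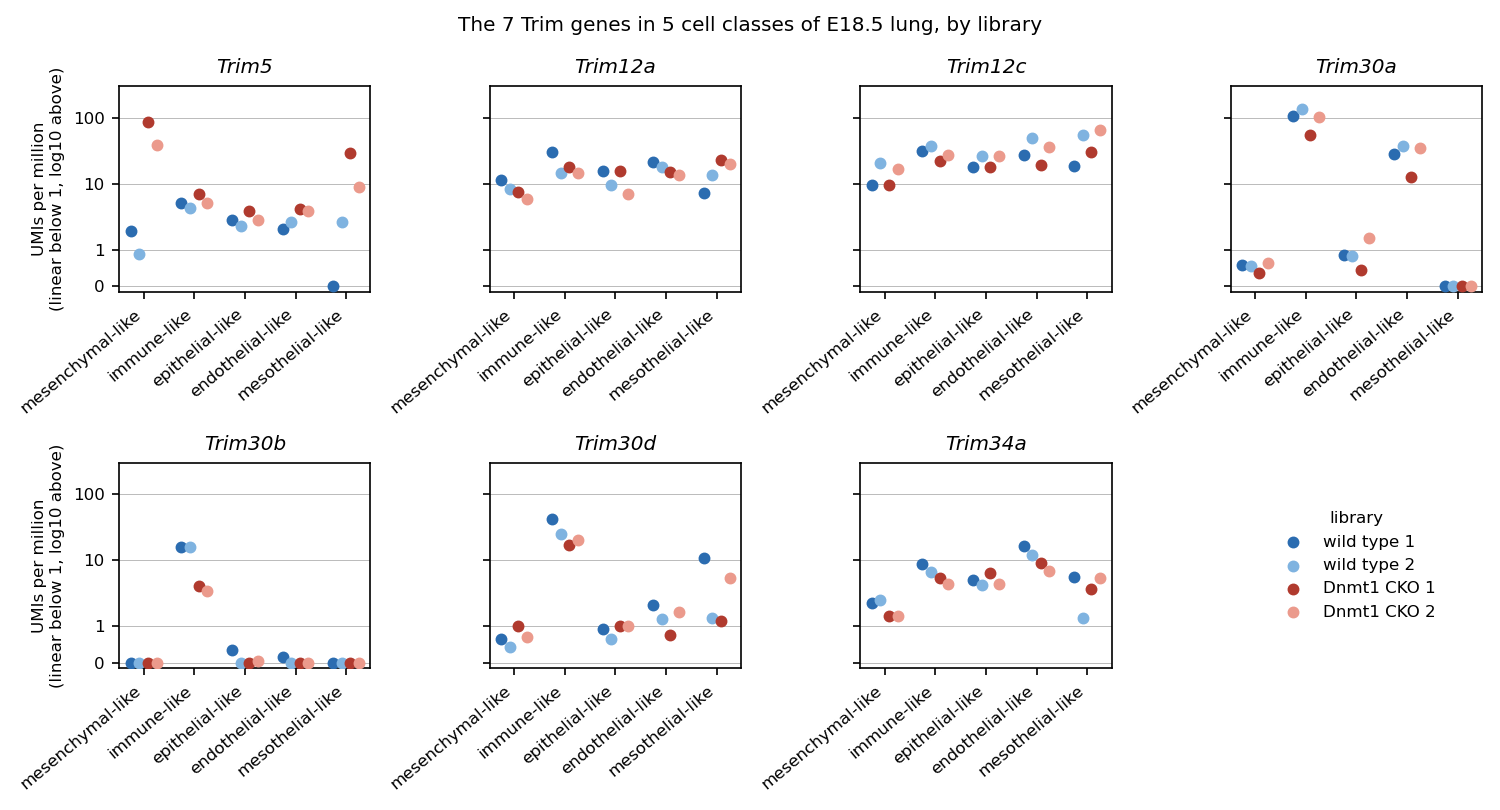
CPM (y axis, linear below 1 and log10 above) of each of the 7 genes in 5 cell classes (x axis), one point per library. In mesenchymal-like cells the mutant points of Trim5 lie at 86.5 and 38.4, above wild type points at 1.92 and 0.891, and Trim30b is near 0 outside immune-like cells.

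Genes whose levels followed those of Trim5 over the 20 sums of class and library were Rpl39l (Pearson r 0.892), Taf7l (0.873), Trap1a (0.872), Slc25a31 (0.859) and Tuba3b (0.857), among 9002 genes. Several of these are known for expression in testis. Those nearest to Trim30a were Srgn (0.983), Inpp5d, Sdcbp, Tnfrsf13b and Samsn1, most of them genes of blood cells. Those nearest to Trim30b were Stfa2l1 (0.975), Stfa2, Retnlg, Cyp4f18 and Gpr141, with Retnlg and the stefin genes known from neutrophils. The 20 sums share libraries and come from 4 libraries only, so these values rank genes and carry no test.

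Genes of the pathways around these members were then counted in mesenchymal-like cells. Of 47 tested interferon-stimulated genes, 5 rose and 2 fell, or 14.9%, with a median log2 fold change of -0.11 against 0.00071 over all genes. Cxcl10, a chemokine, rose from 6.35 and 3.02 to 22.3 and 25.5 CPM (log2 2.30, SE 0.342, edgeR adjusted p = 0.00373), and leaving out any 1 library kept that call. Isg15, a ubiquitin-like protein, rose by 1.26 (adjusted p = 0.0249), as did Bst2, the tetherin that holds budding virus, by 1.25 (adjusted p = 0.0270). Stat2, which carries the interferon signal to the nucleus, changed by -0.83 (adjusted p = 0.0245). Isg15 had an adjusted p of 0.0981 without wild type library 1, 0.121 without wild type library 2 and 0.106 without mutant library 2, and Bst2 had 0.0809, 0.166 and 0.119. Stat2 had 0.127 without wild type library 2, 0.115 without mutant library 1 and 0.0502 without mutant library 2. The share of the list that was called, 14.9%, was near the 12.9% of all genes. The 10 immune markers, all detected in mesenchymal-like cells, summed there to 18.2 and 19.3 CPM in wild type and 29.8 and 40.1 in mutant libraries, and their part in these values was not tested.

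Among 19 tested restriction factors, 3 rose, beside 12.9% of all genes called in either direction. The median log2 fold change of the list was -0.11, against 0.00071 over all genes. Resf1, which helps silence retroelements, rose by 0.79 on the log2 scale (edgeR adjusted p = 0.0372, but 0.0964 without wild type library 1 and 0.229 without mutant library 1). Slfn8 rose by 1.79 on 3 to 17 UMIs (adjusted p = 0.0392), with adjusted p from 0.104 to 0.251 when any 1 of the 4 libraries was left out. The other that rose was Bst2, which is on both lists.

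Of 26 partners in ubiquitin and TAK1 signalling, 1 rose, Nfkbia, the inhibitor of NF-κB, by 1.05 (edgeR adjusted p = 0.0234), so 3.85% of the list was called beside 12.9% of all genes. Its adjusted p was 0.0706 without wild type library 1, 0.121 without wild type library 2 and 0.158 without mutant library 2. Of 34 other tested Trim genes, 2 rose and 1 fell, or 8.82% beside the same 12.9%. Trim52 went from 0 UMIs in both wild type libraries to 49 and 52, or 2.47 and 3.06 CPM (adjusted p = 0.00104). Trim59 rose by 1.34 (adjusted p = 0.00302) and Trim36 changed by -1.28 (adjusted p = 0.00880), and these 3 calls held when any 1 library was left out.

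None of the 5 tested neighbours within 1 Mb of the cluster was called in mesenchymal-like cells by edgeR, with 0 at an unadjusted p under 0.05 and 0 by DESeq2. In the immune-like, epithelial-like and endothelial-like classes edgeR called 0 genes of all 5 lists. Of a list, 0 to 9 genes had an unadjusted p under 0.05, and DESeq2 made 1 call, among interferon-stimulated genes of immune-like cells. The interferon-stimulated list had median log2 fold changes of -0.30 in immune-like, -0.29 in endothelial-like and 0.10 in epithelial-like cells. Medians of all genes there were -0.00017, 0.0023 and 0.0068. In endothelial-like cells 9 of its 48 tested genes had an unadjusted edgeR p under 0.05, beside 3.82% of all genes. In mesothelial-like cells edgeR called 0 genes of the other 4 lists, with 1 or 2 of a list at an unadjusted p under 0.05 and 0 by DESeq2. There the globin genes Hbb-bt (log2 5.33, edgeR adjusted p = 0.0126) and Hbb-bs (log2 4.70, adjusted p = 0.0130), which lie within that window, rose. Their adjusted p was 0.118 and 0.0957 without wild type library 1, and 0.0949 and 0.1005 without wild type library 2. Haemoglobin RNA in a class of 27 to 61 cells also marks red blood cells, and their part in the result was not tested.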

How the data were processed

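The 4 libraries, from 3′ single-cell RNA, came as gene by barcode tables of whole UMI counts, deposited without normalization. For the authors' own steps, the submitters' processing notes list Cell Ranger 3.1.0, bcl2fastq 2.20, Seurat and the build GRCm38.p6; what Seurat was used for is not given in the sources used here.

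From these counts, barcodes with under 500 genes or over 20% mitochondrial UMIs and barcodes called doublets by Scrublet were left out. Cells were clustered (scanpy 1.11.5; 2000 variable genes without the 7 members, 30 components, 15 neighbours, Leiden resolution 1) and named by marker lists, with thresholds of the naming set after the clusters were seen. Raw counts were summed per library and class and tested with edgeR 4.0.16 (quasi-likelihood, TMM, low-count filter, Benjamini-Hochberg adjustment over all genes, threshold 0.05), checked on simulated data. DESeq2 1.42.0 was an alternative, as were other scalings, filters, clusterings and leaving out each library; where that left 1 library in a group, it was assumed to vary like the others. Standard errors (SE) are the size of the log2 fold change divided by the square root of the edgeR F statistic. Levels (CPM) are UMIs per 1000000 UMIs of the class sum. The members, the gene lists and the tests were chosen with earlier results of these data known. Named genes were the 7 members, Dnmt1 and called genes within 1 Mb. Also named were up to 4 called genes per list and class with the smallest adjusted p. The 5 genes nearest in correlation to each of Trim5, Trim30a and Trim30b were added, as was Trim30c after its values were seen. The result of 1 called list gene is not reported here. Intervals are 95% exact binomial or Poisson intervals and cover counting error only.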

Additional observations from a re-analysis of the deposited data

Results flagged for a closer look

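For Trim12a and Trim30d, both mutant libraries lay on one side of both wild type libraries in some cell classes and on the other side in others; the difference between classes was not tested. Trim12a was higher in mutant mesothelial-like cells (log2 0.81) and lower in mutant mesenchymal-like (-0.58) and endothelial-like cells (-0.42). Trim30d was higher in mutant mesenchymal-like (log2 0.56) and epithelial-like cells (0.28) and lower in mutant immune-like cells (-0.78). Of all genes tested in mesenchymal-like cells, 31.4% were higher and 26.1% lower without overlap, and 18.8% were lower in immune-like cells. Shares for the other classes are not given here, and nothing is read from these sides. Counts behind these values are small: Trim12a had 4 to 22 UMIs per library in mesothelial-like cells, and Trim30d had 9 to 20 UMIs per library in mesenchymal-like cells.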

How the results depend on the processing

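Of 353 alternative values of members and shares, 339 stayed within the spread of the main value and 14 moved beyond it. Of the 345 log2 fold changes among them, 16, in 10 of 26 results, had the sign opposite to the main value, all of members that were not called, and 15 of these came from leaving out 1 library. They include Trim12a in immune-like cells (0.26 without wild type library 1) and Trim30a in epithelial-like cells (-0.76 without mutant library 2, -0.45 with doublets kept). The log2 fold change of Trim5 in mesenchymal-like cells, which chose that gene, ranged from 4.67 without mutant library 1 to 6 without wild type library 1. Trim30b in immune-like cells was -1.80 with doublets kept and -1.77 without the S100a9-led cluster (chosen after seeing the data). The count of members called in immune-like cells was 1 with no low-count filter, 1 with DESeq2 and 0 to 3 when 1 library was left out: 1, Trim30b, without mutant library 1, and 3, Trim30a, Trim30b and Trim30d, without mutant library 2. The immune-like contrast chose Trim30b, so nothing is read from the counts in that class. In mesothelial-like cells the count of members called was 1, Trim5, with no filter. Over all genes 278 of 19527 were called there with no filter, against 49 of 8685 in the main fit. The cause was not tested. With the replicate number as a block, 1, 0, 0, 0 and 0 members were called in mesenchymal-, immune-, epithelial-, endothelial- and mesothelial-like cells, as in the unblocked fit; over all genes the block called 3468, 10, 253, 132 and 194 against 2078, 2, 0, 8 and 49. Deviations of same-numbered libraries correlated at 0.104, 0.0032, 0.313, 0.106 and 0.019, and nothing in the labels says that the numbers pair libraries. Over all genes, mesenchymal-like calls were 3436 with no filter, 787 without wild type library 2 and 1366 without mutant library 1. Immune-like calls were 258 with no filter, 30 with DESeq2, 447 without mutant library 1 and 256 without mutant library 2. Low counts limit Trim30b, Trim30d and all mesothelial-like values.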
